A study of Mus musculus with 12 samples.

Results

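The transcripts described here are 6 noncoding RNAs, Rn7sk, Rmrp, Rpph1, Terc, Malat1 and Neat1, taken as the rows whose identifiers carry these symbols in GENCODE M21, 6 of 51826 genes in the table. They were chosen by their share of each line's counts and by what leaving them out does to library scaling, Rn7sk in particular because its share differed between lines, so the shares and all values of Rn7sk are given as a description without a test. RNA was sequenced from 12 pre-B cell lines made from the bone marrow of 2 C57BL/6 mice, which the labels call pro-/pre B cells. After 7 days in culture with interleukin 7 (IL7) the cells were transduced with an empty retroviral vector (EV) or with BCR-ABL1, the oncogenic tyrosine kinase formed by the Philadelphia translocation, and held for 48 h in IL7, giving 3 EV and 3 BCR-ABL1 lines of each mouse in 3 independent experiments. BCR-ABL1 cells then grew 1 week without IL7, while EV cells stayed in IL7 for a similar time and were sorted by the GFP that the vector carries. BCR-ABL1, the loss of IL7 and the missing sort therefore cannot be told apart. Lines are named by mouse and letter, so that EV 2A came from mouse 2.

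Libraries were prepared from total RNA, and the total gene count of a line was between 34791011 and 66011225, the lowest in EV 2A. The 10 B lineage markers fixed for this purpose summed to 5232 to 8156 CPM (counts scaled to a common library size) in EV lines and 5047 to 5581 in BCR-ABL1 lines. EV 2A, with 8156, and EV 2B, with 7587, were the highest, and the other EV lines lay between 5232 and 5608. In these 2 lines Rag1, the recombinase subunit of immunoglobulin rearrangement, had 90.04 and 147 CPM against 14.5 to 33.9 in the other EV lines, and Cd79b, a signalling chain of the B cell receptor, 668 and 963 against 299 to 345. Of the 10 markers 0 were called between the conditions by edgeR's glmTreat, by DESeq2 or at an unadjusted p under 0.05 of glmTreat, beside 12.5%, 9.62% and 21% of all tested genes. The interaction of mouse and condition, tested by glmQLFTest, passed for 2 of the 10, beside 16.9% of all tested genes. Vpreb1 had 186 to 230 CPM in the EV lines of mouse 1 and 451.5 to 790 in those of mouse 2. Its log2 fold changes were 1.51 in mouse 1 and -0.44 in mouse 2, with an adjusted p of 0.00041 for the interaction. For Igll1 they were 1.19 and -0.52, with an adjusted p of 0.0058. Myeloid markers summed to at most 1.69 CPM, T and NK markers to at most 3.76, erythroid and megakaryocyte markers to at most 3.07 and stromal markers to at most 1.41. The highest myeloid, erythroid and megakaryocyte, and stromal sums were those of EV 2A. In the other EV lines these sums were 0.245 to 0.793, 2.13 to 2.60 and 0.0307 to 0.318 CPM. T and NK markers, at 2.02 CPM, were also higher in EV 2A than in the other EV lines. Elane, Ncr1, Hba-a1 and Pf4 stayed at or under 3 counts in each line. Of the 4 markers of other cell types that could be tested, Cd3d, at 0.234 to 0.644 CPM in EV and 0.0304 to 0.116 in BCR-ABL1 lines, and Itga2b, at 1.84 to 2.28 and 0.863 to 1.70 CPM, were called lower in BCR-ABL1. Cd3d, with 13 to 34 counts in EV and 2 to 6 in BCR-ABL1 lines, passed the gene filter through the EV lines. Its log2 fold change was -2.67, and without a gene filter -2.61 with an adjusted p of 0.00107. The call of Itga2b, with a log2 fold change of -0.99 and an adjusted p of 0.0470, held in 10 of 27 alternatives and was lost by DESeq2 (adjusted p = 0.287) and without EV 2A and EV 2B (-0.95, adjusted p = 0.0906). Klrb1c, an NK cell receptor in the T and NK list, was not called (1.45, SE 0.90, adjusted p = 0.497) and made up most of the highest sum of that list, with 3.68 CPM in BCR-ABL1 1B. It had 0.0289 to 0.0921 CPM (2 to 6 counts) in the EV lines of mouse 1 and 0.797 to 1.07 in those of mouse 2, log2 fold changes of 5.01 in mouse 1 and -0.94 in mouse 2, and an adjusted p of 0.000288 for the interaction of mouse and condition. The part of these cells, and of the B lineage markers that moved with EV 2A and EV 2B, in the results was not tested. EV 2A and EV 2B stood apart by these B lineage markers and by the noncoding shares given below, and EV 2A also by the marker sums of other cell types. EV 2C stood apart by lying nearest to the BCR-ABL1 lines in several genes. Values without EV 2A and EV 2B are given beside results that moved with them. Fits without EV 2C cover the noncoding RNAs and the called genes named here, and uncalled list members have no value without it. In bulk RNA, fewer cells with a transcript and less of it per cell cannot be told apart.

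The RNAs work in the nucleus. Rn7sk is the 7SK RNA, a scaffold that holds the elongation kinase P-TEFb in an inactive complex. Rmrp and Rpph1 are the catalytic RNAs of RNase MRP, which processes the precursor of ribosomal RNA, and of RNase P, which trims the 5′ ends of transfer RNAs. These 3 are made by RNA polymerase III. Terc carries the template from which telomerase copies telomere repeats. Malat1 gathers in nuclear speckles, where splicing factors are stored, and Neat1 is the scaffold of paraspeckles, bodies that retain RNAs and RNA-binding proteins. Terc, Malat1 and Neat1 are transcribed by RNA polymerase II. RNase P also cuts the 3′ ends of Malat1 and Neat1 ahead of a transfer RNA-like piece, which ties the ribozyme of the group to its long RNAs.

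Sequences are shown for the parts of each RNA that carry its function or that bear on how its reads are assigned. They were read from GENCODE M21 transcripts on GRCm38 and are printed 5′ to 3′ on the minus strand, on which all 6 lie. The first 120 bases of Rn7sk, at chr9:78175514-78175633, hold the 5′ hairpin at which HEXIM proteins bind, and the capitals mark the motif GATC, found 3 times and present in 68.8% of the transcripts of 250 to 450 bases on the strand of the transcript. The first 120 bases of Terc, at chr3:96414740-96414859, hold the telomere template CCTAACCCT in capitals at bases 28 to 36, a run of letters found in 0.0908% of transcripts of that length range.
Rn7sk: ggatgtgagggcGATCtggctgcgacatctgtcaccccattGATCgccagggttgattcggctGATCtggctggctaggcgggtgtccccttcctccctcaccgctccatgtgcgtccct
Terc: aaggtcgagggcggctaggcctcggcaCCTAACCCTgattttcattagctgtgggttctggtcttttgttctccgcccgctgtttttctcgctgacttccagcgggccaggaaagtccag

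The 3′ regions of Malat1 and Neat1 are shown because RNase P acts there. The windows are bases 6572 to 6691 of the Malat1 transcript, at chr19:5795982-5796101, and the last 120 bases of the long Neat1 transcript, at chr19:5824708-5824827. Capitals mark stretches of 10 or more bases that both windows share in the same order. The longest, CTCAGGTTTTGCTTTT, has 16 bases and occurs in 2 of 141767 transcripts of the annotation. A stretch of 13 bases, TTTCTTTTCCTGA, occurs in 0.0247% of the transcripts, and AAAAAGCAAAA, with 11 bases, in 0.436%. Only the strand of the transcript was searched. Directly behind the annotated end of Neat1, with 0 bases between them, the annotation places a small RNA of 56 bases, Gm27702, at chr19:5824652-5824707.
Malat1: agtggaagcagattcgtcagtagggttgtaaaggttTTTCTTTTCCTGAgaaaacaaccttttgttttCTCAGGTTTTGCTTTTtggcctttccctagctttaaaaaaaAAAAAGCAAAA
Neat1: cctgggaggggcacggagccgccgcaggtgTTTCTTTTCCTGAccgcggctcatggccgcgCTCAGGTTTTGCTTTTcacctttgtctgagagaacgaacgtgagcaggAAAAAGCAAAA
Gm27702: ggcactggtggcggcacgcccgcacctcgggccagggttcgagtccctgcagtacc

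The 2 ribozymes overlap protein-coding genes, which bears on how reads were assigned. Rmrp, 271 bases at chr4:43492788-43493058, lies opposite to Ccdc107, and 124 bases in capitals are also part of a Ccdc107 transcript on the other strand. Rpph1, 319 bases at chr14:50807449-50807767 of which the first 300 bases are printed, lies on the same strand as Ccnb1ip1, with 233 shared bases in capitals. Counts on Rmrp were 31599 to 197885 per line against 2139 to 4741 on Ccdc107, whereas Ccnb1ip1 had at most 3. Whether the counting used strand or reads with several places is not given in the sources used here.
Rmrp: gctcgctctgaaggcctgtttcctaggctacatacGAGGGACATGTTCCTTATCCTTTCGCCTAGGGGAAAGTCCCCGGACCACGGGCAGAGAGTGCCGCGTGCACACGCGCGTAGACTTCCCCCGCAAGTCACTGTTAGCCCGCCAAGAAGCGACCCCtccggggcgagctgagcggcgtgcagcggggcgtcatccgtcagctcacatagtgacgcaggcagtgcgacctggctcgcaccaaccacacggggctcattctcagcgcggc
Rpph1: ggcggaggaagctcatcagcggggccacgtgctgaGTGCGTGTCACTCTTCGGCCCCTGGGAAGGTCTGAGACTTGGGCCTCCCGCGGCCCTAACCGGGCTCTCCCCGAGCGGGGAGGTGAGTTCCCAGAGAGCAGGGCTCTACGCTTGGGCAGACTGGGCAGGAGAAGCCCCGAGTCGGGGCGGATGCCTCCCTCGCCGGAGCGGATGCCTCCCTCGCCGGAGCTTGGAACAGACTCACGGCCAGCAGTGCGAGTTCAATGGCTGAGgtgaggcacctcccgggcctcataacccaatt

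The 6 RNAs together took 3.28% to 10.3% of the counts of EV lines, with a median of 4.69%, and 2.12% to 2.68% of those of BCR-ABL1 lines, with a median of 2.42%. The groups did not overlap. EV 2A with 10.3% and EV 2B with 8.58% were the highest, and the remaining EV line of mouse 2, EV 2C with 3.28%, was the lowest of the EV lines. In the BCR-ABL1 lines the share varied with an SD of 0.228 percentage points around a mean of 2.41% (n = 6), against an SD of 2.80 around 5.94% in EV lines (n = 6). Rn7sk made up most of it in each line. Its 95% Wilson intervals were at most 0.0179 percentage points wide and reflect counting alone, because PCR reads lacking molecular identifiers do not stand for separate molecules.

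**Figure D1:**
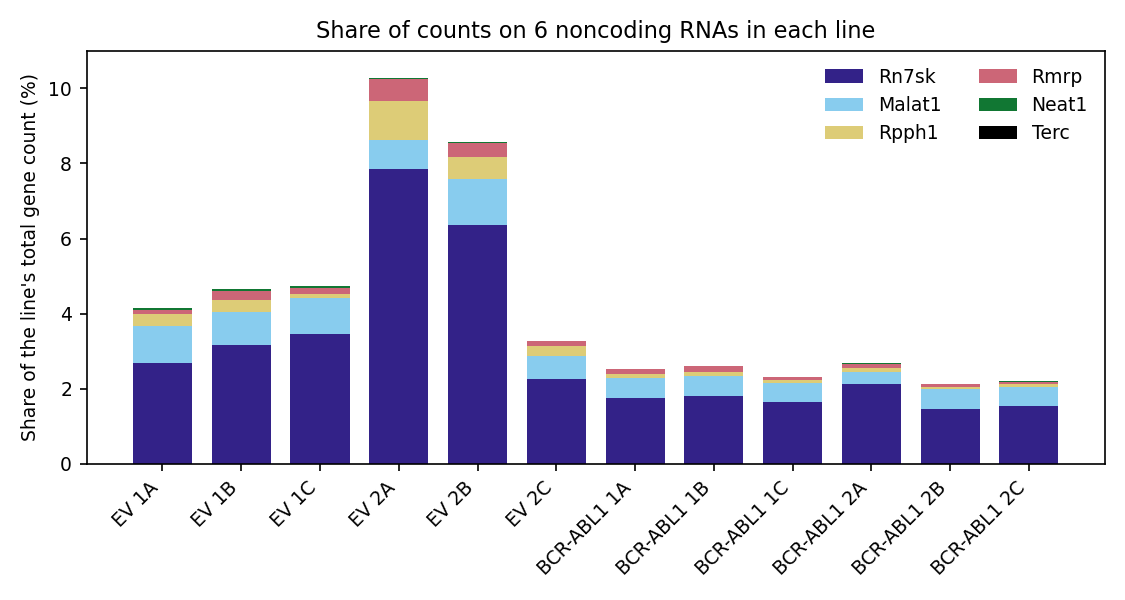
Share of each line's total gene count, in percent, on Rn7sk, Malat1, Rpph1, Rmrp, Neat1 and Terc, as 1 stacked bar per line. The bars of EV 2A and EV 2B reach 10.3% and 8.58%, the other EV lines lie between 3.28% and 4.73% and the BCR-ABL1 lines between 2.12% and 2.68%; Terc is too low to be seen.

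Per length, on a scale of CPM per kb of exon, Rn7sk was the most abundant of the 6 in both groups, with medians of 93743 in EV and 53208 in BCR-ABL1 lines. In EV lines Rpph1 followed with 9120 and Rmrp with 6848, and their ranges, 2987 to 34684 and 4329 to 22394, overlapped. In BCR-ABL1 lines the order of this pair was turned, with 3873 for Rmrp and 2540 for Rpph1, again with overlapping ranges of 2395 to 5470 and 2111 to 3680. Malat1 came next with 1238 and 744. Neat1, whose 20771 bases include the long isoform, had 20.4 in EV and 4.10 in BCR-ABL1 lines. Terc was the lowest in EV lines with 0.101, and in BCR-ABL1 lines its 5.76, within 2.89 to 10.4, overlapped the 2.58 to 4.69 of Neat1.

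**Figure D2:**
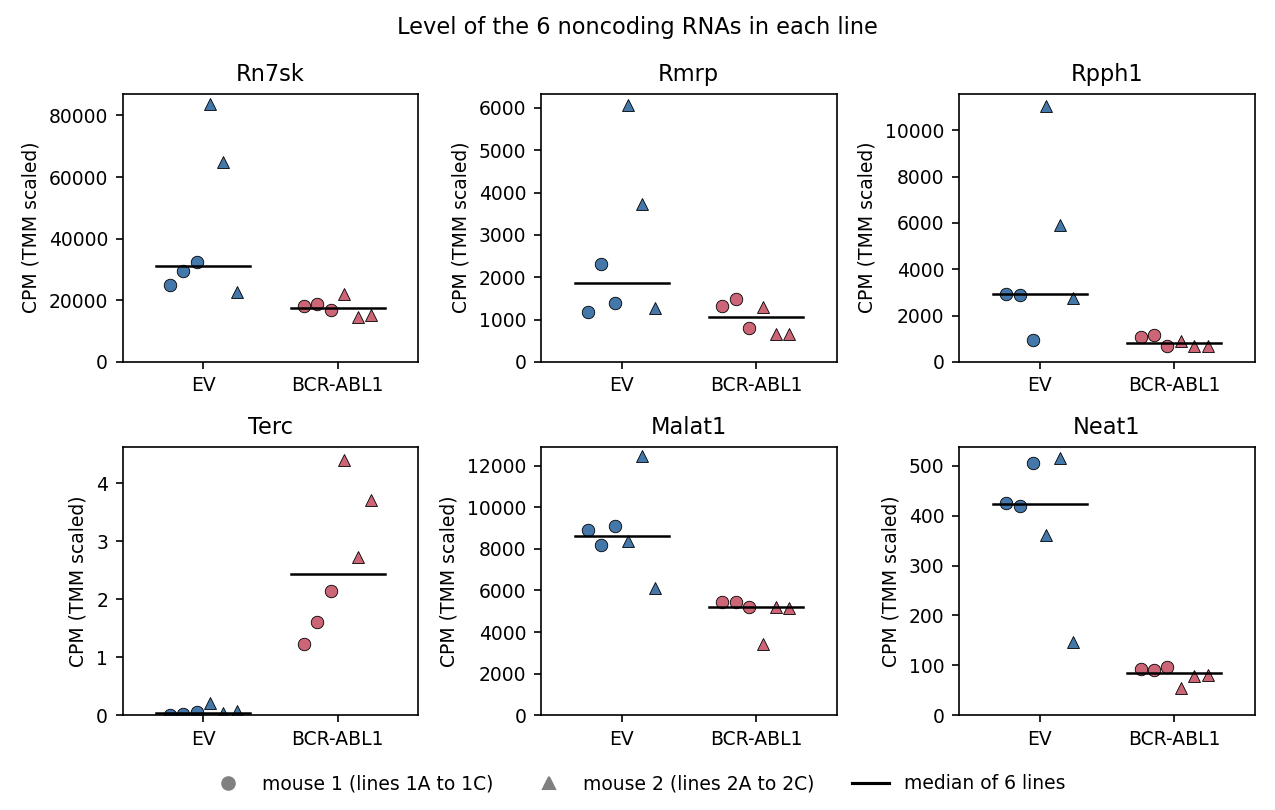
Level of each of the 6 RNAs in CPM scaled by TMM, on linear axes from 0 that differ between panels, with 1 point per line (circles, mouse 1; triangles, mouse 2) and the median of 6 lines as a bar. EV 2A and EV 2B are the highest points for Rn7sk, Rmrp and Rpph1, whereas for Terc the BCR-ABL1 lines, at 1.22 to 4.41 CPM, lie above the EV lines, at 0 to 0.215 CPM.

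The comparison of BCR-ABL1 with EV lines asks how these RNAs differ between transformed and control pre-B cells. Calls are those of edgeR's glmTreat on its quasi-likelihood fit against a 1.5-fold change, with p adjusted by Benjamini-Hochberg over all 15038 tested genes and a threshold of 0.05. Of all tested genes 12.5% were called, 5.99% higher and 6.49% lower in BCR-ABL1 lines. Of the 5 RNAs that were tested, 3 were called. The shares by which the RNAs were chosen come from the same counts, so these tests are not independent of the choice. Terc was higher, and Rpph1 and Neat1 were lower. Terc passed the gene filter through the BCR-ABL1 lines alone. The groups did not overlap for Terc, Malat1 and Neat1, and 25.6% of all tested genes had groups that did not overlap. SE values are those of the difference of mean log2 CPM, with n = 6 lines per group.

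Rn7sk had 22560 to 83682 CPM in EV lines, with a median of 31029, and 14692 to 22192 CPM in BCR-ABL1 lines, with a median of 17612. EV 2A had 83682 and EV 2B 64970, whereas the other EV lines lay between 22560 and 32548, so the lowest EV line stood just above the highest BCR-ABL1 line. The log2 fold change was -1.28 with an SE of 0.33. Without EV 2A and EV 2B it was -0.64, and it was -0.68 in the lines of mouse 1 and -1.70 in those of mouse 2. The annotation holds 11 partial copies of Rn7sk with at least 90% identity over at least 40% of its length, among them Gm24447, identical over bases 1 to 241. Together they had 449 to 2569 counts per line, 0.0493% to 0.113% of those of Rn7sk.

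The proteins around 7SK are its cap enzyme, its 3′ end binder and the HEXIM inhibitors. Of these 4 tested genes 0 were called by glmTreat or DESeq2 and 0 had an unadjusted p under 0.05, and the median log2 fold change was -0.22, beside -0.02 over all tested genes. The median of the 4 was 0.04 without EV 2A and EV 2B. Larp7, which protects the 3′ end of 7SK, had 68.2 to 94.0 CPM in EV and 101 to 114 in BCR-ABL1 lines, a log2 fold change of 0.31 (SE 0.07, adjusted p = 1). Hexim1, the inhibitor that 7SK loads onto P-TEFb, had 42.3 to 73.6 and 43.2 to 54.5 CPM, with its 2 highest values in EV 2B and EV 2A. Of 9 tested genes for P-TEFb and the factors that release it 0 were called by either tool or at an unadjusted p under 0.05. The interaction of mouse and condition, tested by glmQLFTest, passed for 1 of the 9, beside 16.9% of all tested genes. This was Ell2, with an adjusted p of 0.0026. Ell2 had 24.9 to 29.9 CPM in the EV lines of mouse 1 and 73.8 to 191 in those of mouse 2. Its log2 fold changes were 1.90 in mouse 1 and -0.33 in mouse 2. Ccnt1, cyclin T1 of P-TEFb, had medians of 152 and 158 CPM, and its kinase Cdk9 had a log2 fold change of 0.00 (SE 0.08).

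Rpph1 fell, with 953 to 11064 CPM in EV lines and a median of 2909, against 673 to 1174 in BCR-ABL1 lines and a median of 810. EV 2A with 11064 and EV 2B with 5925 were again the highest, and EV 1C, at 953 CPM, lay within the range of the BCR-ABL1 lines. The log2 fold change was -2.34 (SE 0.51, adjusted p = 0.00967). The call stood without EV 2A and EV 2B, at -1.46 with an adjusted p of 0.0197. Rmrp, the sister RNA that shares most proteins with Rpph1, had 1173 to 6069 CPM in EV and 649 to 1482 in BCR-ABL1 lines, with medians of 1856 and 1050. Its groups overlapped, and its log2 fold change of -1.36 (SE 0.45) was not called against the 1.5-fold threshold, with an adjusted p of 0.119. Without EV 2A and EV 2B it was -0.58 with an adjusted p of 0.779.

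Of 12 tested proteins of RNase P and RNase MRP 1 was called, higher, 10 had positive log2 fold changes, and the median was 0.38, or 0.28 without EV 2A and EV 2B. The interaction of mouse and condition passed for 2 of the 12, beside 16.9% of all tested genes. The call was Rpp25, a subunit that binds the RNA of both enzymes. It had 0 counts in 4 EV lines, 1 in EV 2B and 16 in EV 2C, against 13 to 93 in BCR-ABL1 lines, a log2 fold change of 4.02 (SE 0.68, adjusted p = 0.0189) at very low levels of 0.220 to 1.54 CPM. EV 2C thus lay inside the BCR-ABL1 range. Rpp25 passed the gene filter through the BCR-ABL1 lines, so whether it was tested hung on the group in which it is high. Without a gene filter the log2 fold change was 4.04 with an adjusted p of 0.0167. Without EV 2A and EV 2B the log2 fold change was 3.64 with an adjusted p of 0.0542. Without EV 2C, when 1 count was left in the EV lines, it was 7.19 with an adjusted p of 0.000229, a size that depends on the prior count. Pop1, the largest protein of both enzymes, had 27.2 to 76.8 CPM in EV lines and 65.4 to 79.4 with BCR-ABL1 and was not called (adjusted p = 0.617).

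Terc rose. It had 0, 1 and 3 counts in EV 1A, 1B and 1C and 7, 2 and 4 in EV 2A, 2B and 2C, against 72, 77 and 94 in BCR-ABL1 1A, 1B and 1C and 229, 180 and 179 in 2A, 2B and 2C. All 6 BCR-ABL1 lines were above all 6 EV lines, and 4 EV lines were at or under the floor of 3 counts, which is 0.0433 to 0.0920 CPM scaled by TMM over the 12 lines. Over the lines, 17 counts in EV and 831 in BCR-ABL1 gave a ratio of 47.8 per total count, with an exact interval of 29.7 to 82.4 that covers counting error only. The fitted log2 fold change was 5.49 (SE 0.48, adjusted p = 0.000160), a value that depends on the prior count at levels so near to 0. Terc passed the gene filter through the BCR-ABL1 lines alone, so whether it was tested hung on the group in which it is high. Without a gene filter the value was 5.54 with an adjusted p of 2.34e-05. Even in BCR-ABL1 lines Terc stayed low, at 1.22 to 4.41 CPM.

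The protein partners of Terc were present in both groups. Of 12 tested genes for the telomerase protein and the maturation of Terc 0 were called by glmTreat or DESeq2 and 1, Dkc1, had an unadjusted p under 0.05, 9 had positive log2 fold changes and the median was 0.25, or 0.13 without EV 2A and EV 2B. Tert, the reverse transcriptase, had medians of 1.66 CPM in EV and 2.57 in BCR-ABL1 lines, and EV 2A had the highest level with 4.39. Its log2 fold change was 0.33, and 0.77 without EV 2A and EV 2B. Dkc1, dyskerin, a pseudouridine synthase that binds Terc, had 66.3 to 133 CPM in 5 EV lines and 248 in EV 2C, against 233 to 271 with BCR-ABL1. A log2 fold change of 0.90 (SE 0.25) was not called, with an adjusted p of 0.175, and its value without EV 2C was not computed. Near Terc, 1075 bases away on the same strand, the processed pseudogene Gm21960 had 0 counts in each EV line and 3 to 14 in each BCR-ABL1 line. It was chosen after its values were seen and was too low to be tested.

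Neat1 fell, from 147 to 515 CPM in EV lines, with a median of 423, to 53.5 to 97.4 in BCR-ABL1 lines, with a median of 85.1. EV 2C, at 147 CPM, was nearest to the BCR-ABL1 lines, and the other EV lines lay between 361 and 515. The log2 fold change was -2.27 (SE 0.30, adjusted p = 0.000291). Unlike the polymerase III RNAs, Neat1 was not highest in EV 2A, and without EV 2A and EV 2B the value was -2.20 with an adjusted p of 0.000884. Malat1 had 6130 to 12466 CPM in EV lines, with a median of 8644, and 3420 to 5460 in BCR-ABL1 lines, with a median of 5198. Each BCR-ABL1 line lay below each EV line. The log2 fold change of -0.83 (SE 0.17) was not called against 1.5-fold, with an adjusted p of 0.143. Against no change its adjusted p was 0.00188 by glmQLFTest, a test that 48.5% of all tested genes passed. Without EV 2C the log2 fold change was -0.92 and called against 1.5-fold, with an adjusted p of 0.0355.

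Of 14 tested paraspeckle proteins 0 were called by glmTreat or DESeq2 and 0 had an unadjusted p under 0.05, and 7 had positive and 7 negative log2 fold changes. Hnrnpk, a protein that steers the Neat1 isoforms, had 880.5 to 1008 CPM in EV and 1077 to 1167 in BCR-ABL1 lines, a log2 fold change of 0.27 (SE 0.04, adjusted p = 1). Sfpq and Nono, the core proteins of paraspeckles, had log2 fold changes of 0.18 and 0.14, and of 0.09 and 0.08 without EV 2A and EV 2B. Of 8 tested speckle proteins that bind Malat1 0 were called, in the same sense, with a median of 0.29, or 0.19 without EV 2A and EV 2B. Srsf1, a splicing factor of speckles, had 665 to 993 CPM in EV and 1111 to 1316 in BCR-ABL1 lines, a log2 fold change of 0.46 (SE 0.10, adjusted p = 1). The groups did not overlap for 3 of the 14 paraspeckle proteins, Hnrnpk, Dazap1 and Ss18l1, and for 2 of the 8 speckle proteins, Srsf1 and Srsf3, 21.4% and 25% beside the 25.6% of all tested genes.

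Next to Neat1, Frmd8os, an antisense RNA that starts 144 bases upstream on the other strand, fell from a range of 0.884 to 2.11 CPM in EV lines to one of 0.173 to 0.293 with BCR-ABL1, with a log2 fold change of -2.47 (adjusted p = 7.06e-05). The small RNA Gm27702 behind its 3′ end had 4, 6 and 9 counts in EV 1A, 1B and 1C, 1, 12 and 2 in EV 2A, 2B and 2C, and 0 to 2 in BCR-ABL1 lines, too few to test. Both neighbours were chosen after their values were seen. On the other sides, C920006O11Rik, 280 bases from Rn7sk, had a log2 fold change of -0.22, Parp2, 73 bases from Rpph1 on the other strand, 0.33, Ccdc107 -0.43, and Gm37376, antisense within Malat1, -0.56. Of these 4, 0 were called by glmTreat or DESeq2 and 0 had an unadjusted p under 0.05.

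The lines of each mouse were also compared alone, and Rpph1 had log2 fold changes of -1.18 (SE 0.58) in mouse 1 and -3.10 (SE 0.60) in mouse 2, with adjusted p of 0.0776 and 0.0219, so that its call was not reached in mouse 1 alone. Rmrp had -0.43 (SE 0.40) and -2.08 (SE 0.74). Terc had 6.14 (SE 0.41) and 5.17 (SE 0.54), Malat1 -0.70 (SE 0.05) and -0.95 (SE 0.36), and Neat1 -2.26 (SE 0.09) and -2.26 (SE 0.57). The interaction of mouse and condition, tested with glmQLFTest, passed for 16.9% of all tested genes and for 0 of the 5 RNAs, of which Rpph1 and Rmrp had an unadjusted p of 0.0180 and 0.0378, with adjusted p of 0.0848 for Rpph1, 0.142 for Rmrp, 0.544 for Terc, 0.670 for Malat1 and 0.992 for Neat1. Without EV 2C it passed for Rmrp and Rpph1, with adjusted p of 0.00600 and 0.00616. Without EV 2A and EV 2B the EV lines of mouse 2 come down to EV 2C alone, so that this line is assumed to vary like the other groups and the interaction rests on 1 library. It was then 1.19 for Neat1 with an adjusted p of 0.00132, and the adjusted p was 0.874 for Rmrp and 0.378 for Rpph1. With mouse as a replicate block, under which 14.7% of all tested genes were called, the same 3 RNAs were called, with adjusted p of 0.0164 for Rpph1, 9.27e-06 for Terc and 0.000159 for Neat1.

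**Figure D3:**
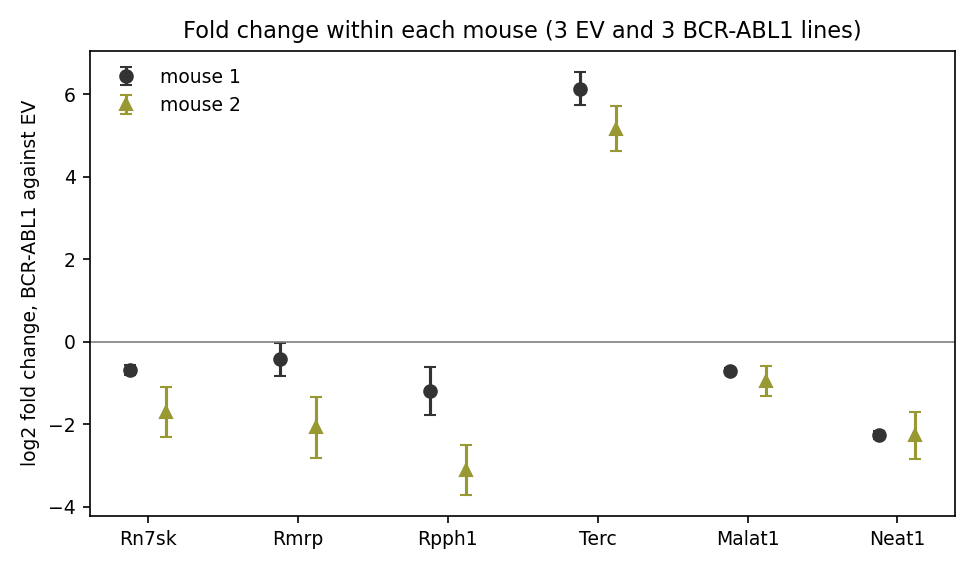
Log2 fold change of BCR-ABL1 against EV lines within mouse 1 (circles) and mouse 2 (triangles), with 3 lines per condition and mouse and SE bars of the difference of mean log2 CPM. For Rn7sk, Rmrp, Rpph1, Terc and Malat1 the value of mouse 2 lies below that of mouse 1, and for Neat1 both mice are at -2.26.

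The polymerase III machinery itself was measured through 11 tested subunits and 20 tested initiation factors and regulators. Among the subunits 1 was called, higher, 2 had an unadjusted p under 0.05, 9 had positive log2 fold changes, and the median was 0.31, or 0.23 without EV 2A and EV 2B. Polr3d, a subunit that takes part in initiation and termination, had 13.3 to 18.0 CPM in 5 EV lines and 30.5 in EV 2C, against 32.0 to 43.4 in BCR-ABL1 lines, a log2 fold change of 1.01 (SE 0.18, adjusted p = 0.0317). The call was lost without EV 2A and EV 2B, at 0.86 with an adjusted p of 0.112, and over the runs that left out 1 line its adjusted p ranged from 0.000133 to 0.0685. Polr3gl, the counterpart of the subunit Polr3g, had 23.5 to 34.0 CPM in EV and 16.7 to 19.9 in BCR-ABL1 lines, with a log2 fold change of -0.74 (SE 0.10, adjusted p = 0.122). Among the initiation factors and regulators 0 were called by glmTreat or DESeq2 and 0 had an unadjusted p under 0.05, and 10 had positive and 10 negative values. The groups did not overlap for 5 of the 11 subunits, 45.5%, and for 7 of the 20 factors, 35%, beside 25.6% of all tested genes. Ssb, the La protein that binds the 3′ ends of new polymerase III RNAs, had 216 to 339 CPM in EV and 402 to 477 in BCR-ABL1 lines, a log2 fold change of 0.66 (SE 0.10, adjusted p = 0.376). Maf1, the repressor of polymerase III, had 115 to 185 and 82.1 to 94.2 CPM, with a log2 fold change of -0.67 (SE 0.14, adjusted p = 0.407), and -0.43 without EV 2A and EV 2B. Over the 8 lists of proteins described so far, 2 of 90 tested genes were called, 2.22%, beside 12.5% of all tested genes. DESeq2 called 1 of the 90, Rpp25, which passed the gene filter through the BCR-ABL1 lines. Against no change rather than 1.5-fold, 48.9% of the 90 genes and 48.5% of all tested genes were called.

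Counts were low on the rows of other listed small nuclear and polymerase III RNAs. How reads with several places were counted is not given, so low counts on a row need not mean little RNA. Of 10 listed polymerase III RNAs 8 had a row and 5 were tested. Of these 0 were called by glmTreat or DESeq2 and 2 had an unadjusted p under 0.05, as 21% of all tested genes did, and the median log2 fold change was -0.90. The median was -0.52 without EV 2A and EV 2B, -0.26 in mouse 1 and -1.54 in mouse 2. Rn7s1, the 7SL RNA of the signal recognition particle, had 1.03 to 5.80 CPM in EV and 0.610 to 1.86 in BCR-ABL1 lines, with the 3 highest values in EV 2A, EV 2C and EV 2B, and a log2 fold change of -1.47 (SE 0.47, adjusted p = 0.0935), or -1.02 without EV 2A and EV 2B. Rny3, a Y RNA, had 1.37 to 2.84 and 1.00 to 2.02 CPM. Rny1, also a Y RNA, was the 1 of the 5 with a positive log2 fold change, 0.78 (SE 0.46, adjusted p = 0.580). Its value was 1.35 without EV 2A and EV 2B, 1.69 in mouse 1 and 0.31 in mouse 2. The spliceosomal Rnu6 and the ribosomal Rn5s had at most 1 count and 0 counts in any line. A further list held 14 small RNAs made by polymerase II, small nuclear RNAs and some small nucleolar RNAs. Of the 14, 7 were tested, 0 were called by glmTreat or DESeq2 and 2 again had an unadjusted p under 0.05, with a median of -0.78. The median moved with the EV lines of mouse 2. It was -0.15 without EV 2A and EV 2B, 0.21 in mouse 1, where 5 of the 7 were positive, and -1.21 in mouse 2. The interaction of mouse and condition passed for 4 of the 7, beside 16.9% of all tested genes. Rnu2-10, the U2 RNA, had 5.63 to 26.8 CPM in EV and 5.29 to 9.38 in BCR-ABL1 lines, with a log2 fold change of -0.78, or -0.15 without EV 2A and EV 2B. Rnu11, of the minor spliceosome, had 4.44 to 26.3 and 4.20 to 5.55 CPM, a log2 fold change of -1.48 with an adjusted p of 0.0523, and 0.0483 with mouse as a replicate block. The value of Rnu11 was -0.86 without EV 2A and EV 2B, with an adjusted p of 0.297, and it was -0.45 in mouse 1 and -2.03 in mouse 2, with an adjusted p of 0.00661 for the interaction. Of 4 tested long nuclear RNAs 1 was called, Pvt1, the neighbour of Myc, with at most 17.7 CPM and a median of 5.31 in EV lines against a median of 27.1 in BCR-ABL1 lines, and a log2 fold change of 1.79 (SE 0.49, adjusted p = 0.0427). Its log2 fold change was 1.97 without EV 2A and EV 2B, with an adjusted p of 0.0557, and the adjusted p was 0.0543 by DESeq2 and between 0.00352 and 0.0786 without 1 line. It was 3.08 in mouse 1 and 1.21 in mouse 2, with an adjusted p of 0.00458 for the interaction. Firre, a long RNA of the X chromosome in the same list, was not called (0.83, SE 1.88, adjusted p = 1). It had 2 to 7 counts (0.0289 to 0.132 CPM) in the EV lines of mouse 1, 20.0 to 52.2 in those of mouse 2 and 30.0 to 35.7 in BCR-ABL1 lines, log2 fold changes of 8.77 in mouse 1 and -0.15 in mouse 2, and an adjusted p of 1.70e-06 for the interaction.

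**Figure D4:**
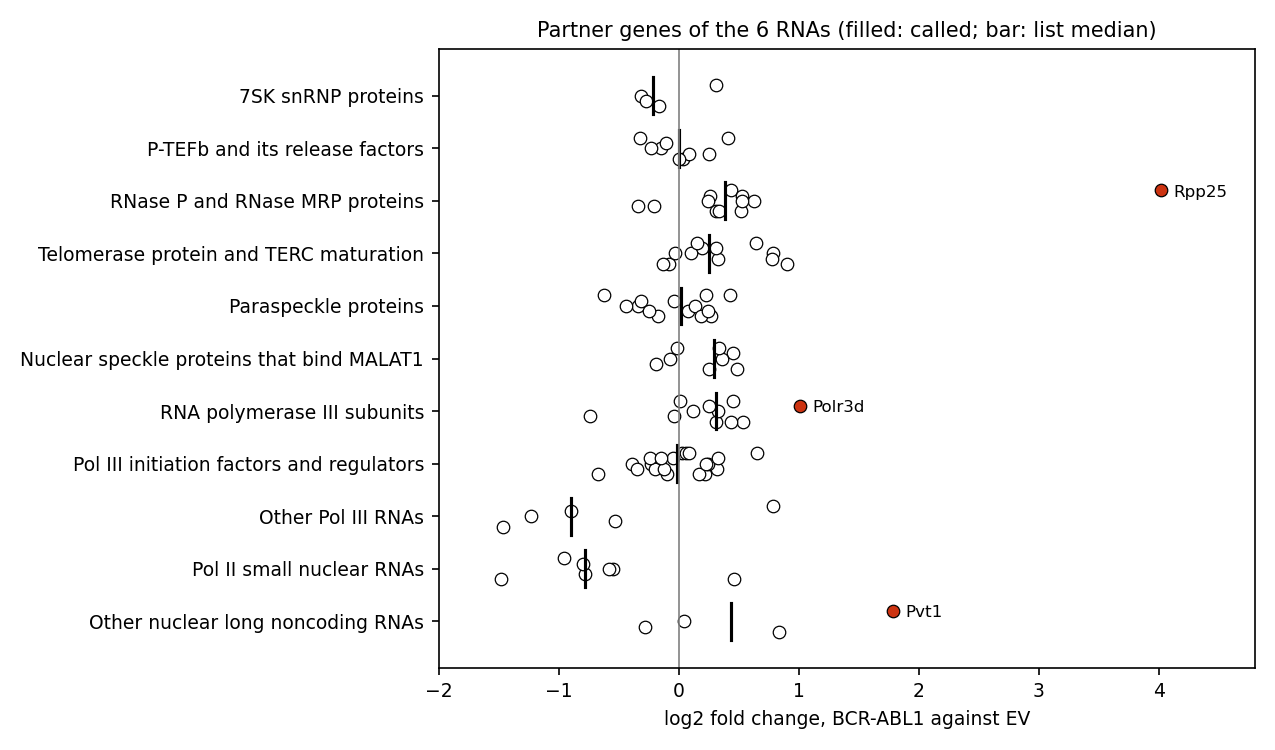
Log2 fold change of BCR-ABL1 against EV lines for the tested genes of 11 partner lists, with 1 circle per gene, filled where the gene was called, and a bar at the list median. Filled circles stand for Rpp25, Polr3d and Pvt1, and the medians of the small RNA lists, -0.90 and -0.78, lie to the left of the protein lists; without EV 2A and EV 2B they are -0.52 and -0.15.

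The course of the 6 RNAs over the 12 lines is given here as correlations of log2 CPM that share libraries, depth and the difference between conditions, without a test. Rn7sk, Rmrp and Rpph1 followed each other with r of 0.94 (Rn7sk and Rmrp), 0.88 (Rn7sk and Rpph1) and 0.89 (Rmrp and Rpph1). Malat1 and Neat1 had r of 0.95. Between the polymerase III RNAs and this pair r was 0.62 (Rmrp and Malat1) to 0.75 (Rn7sk and Neat1). Terc ran against Neat1 with r of -0.92, against Malat1 with -0.86, against Rpph1 with -0.69, against Rn7sk with -0.59 and against Rmrp with -0.53. Among 8946 genes whose average log2 CPM was 3 or more, the course of Rn7sk was most like that of Rsph9 (r = 0.975), Cgrrf1 (0.972) and Paip2 (0.970). That of Rmrp was most like those of Zfp738 (0.949), Rn7sk (0.942) and the small nucleolar RNA Snora73b (0.936), which had 28.7 to 225.5 CPM in EV and 28.1 to 48.7 in BCR-ABL1 lines. Malat1 was most like Phf2 (0.983), Atxn7 (0.976) and Itpkb (0.970). Neat1 was most like 2810002D19Rik, Il7r and Mroh1, each with r of 0.991. Il7r, the IL7 receptor chain, had 235 to 401 CPM in EV and 145 to 189 in BCR-ABL1 lines.

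Leaving the 6 RNAs out shows how far they set the scale on which the other genes are compared. In EV 2A the share of each other gene in the counts grew by 11.4% and in EV 2B by 9.39%, against 2.17% to 2.75% in BCR-ABL1 lines. Under scaling by total counts the relative library size of EV 2A fell by 6.33% and that of EV 2B by 4.57%, whereas BCR-ABL1 lines gained up to 2.18%. The log2 fold changes of all genes then shifted by a median of -0.05. Under TMM, which trims genes with extreme levels or ratios before it sets the factors, the relative size of EV 2A fell by 0.261% and no line moved by more than 0.753%. The TMM factor of EV 2A went from 0.940 to 1.00 and took up nearly the whole change. Log2 fold changes of the other genes moved by -0.0152 to -0.00333 under TMM, with a median of -0.00961. With the 6 RNAs 901 genes were higher and 976 lower, and without them 898 and 999. Under total counts the numbers were 890 and 1146 with the 6 RNAs and 837 and 1304 without them. Under TMM the same 1874 genes were called in both fits, 3 were called with the RNAs alone and 23 without them alone.

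**Figure D5:**
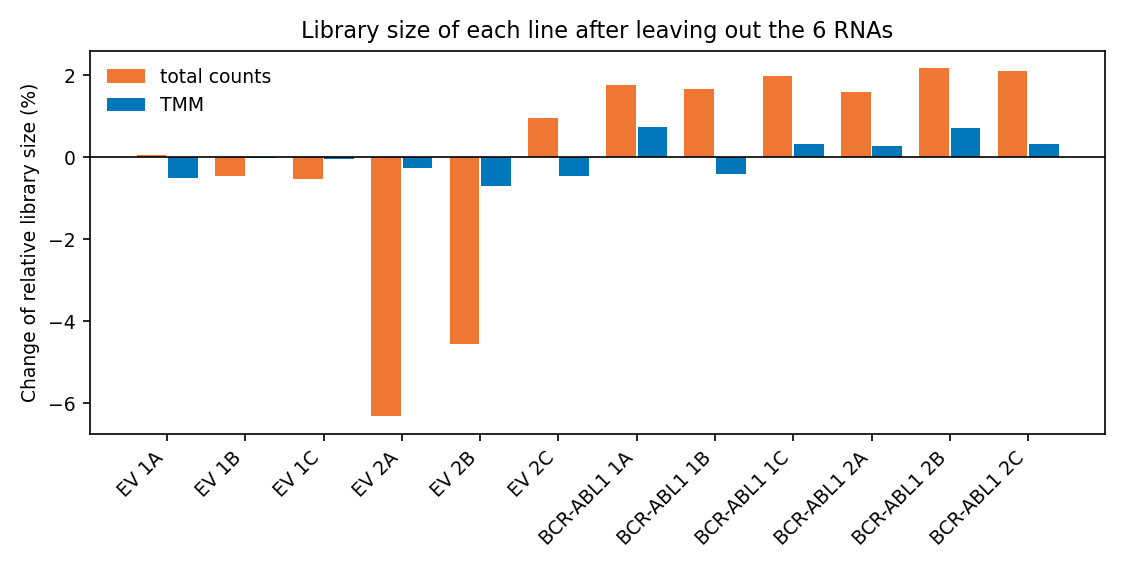
Change of the relative library size of each line, in percent, when the 6 RNAs are left out, under total counts (orange) and under TMM (blue). Bars of total counts reach -6.33% in EV 2A and -4.57% in EV 2B, whereas under TMM the 12 lines stay between -0.704% and 0.753%.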

How the data were processed

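RNA of 6 EV and 6 BCR-ABL1 lines was sequenced with a stranded total RNA kit. The authors deposited whole-number read counts per gene, neither normalized nor pooled; their processing notes name FastQC 0.11.5, Trimmomatic 0.36, TopHat2 2.1.1, Bowtie2 2.3.2, featureCounts 1.5.3, R 3.6.1, edgeR 3.18.1 and GRCm38. Strand and multimapping settings are not given in the sources used here. Totals per line were 34791011 to 66011225, and 3 counts were taken as the floor. Groups, mice and line letters came from the sample labels.

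Genes were named and placed with GENCODE M21 on GRCm38, which matched 51633 of 51826 identifiers. Counts were filtered with filterByExpr, scaled by TMM and tested in R 4.3.3 with edgeR 4.0.16 (glmQLFit and glmTreat against 1.5-fold, adjusted p under 0.05, all 12 lines, no covariate). DESeq2 1.42.0 was an alternative. CPM were scaled by TMM, with a prior count of 2 for log2 CPM. The fits were tested on simulated data, of which no outcome is given here. Copies were searched with blastn 2.17.0 and plots drawn with matplotlib 3.10.9.

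The 6 RNAs and the lists were chosen with earlier results of these data known. Named of each list are the called members (at most 4) or, with none called, the one of highest mean CPM, and of all genes the 3 most like Rn7sk, Malat1, Neat1 or Rmrp; genes that overlap the RNAs or copy them are also named. Hexim1, Cdk9, Ell2, Pop1, Tert, Sfpq, Nono, Maf1, Rny1, Rny3, Rnu6, Rn5s, Rnu11, Dazap1, Ss18l1, Srsf3, Polr3gl, Firre, Rag1, Cd79b, Vpreb1, Igll1, Klrb1c and the neighbours within 3 kb were added after their values were seen.

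Lines of EV and BCR-ABL1 with the same first digit come from the same mouse, so the mouse pairs them. Deviations from the group means correlated between 0.0853 and 0.240 within a mouse and between -0.203 and -0.0636 across mice. Lines of a mouse and condition differed by chi-square values of 9.36 to 434 per gene, so none was a duplicate. The lines come from 2 mice, and p-values measure the spread between lines.

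Alternatives were other size factors, total counts, other gene filters, a test against no change, DESeq2, the likelihood ratio fit, a replicate block by mouse or by line number, each mouse alone, the 6 RNAs or Rn7sk left out of scaling, other denominators for shares and leaving out each line. Leaving out EV 2A and EV 2B together, and total counts without the 6 RNAs, were added after seeing the data.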

Additional observations from a re-analysis of the deposited data

Results flagged for a closer look

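Terc in EV 2A had 0.215 CPM, the highest of the EV lines, and its gap to the next EV line was large against the range of the 6 lines. The value rests on 7 counts in the line with the lowest total count, and the other EV lines had 0 to 4 counts. Malat1 in BCR-ABL1 2A had 3420 CPM, the lowest of the BCR-ABL1 lines, whereas the other 5 lay between 5164 and 5460 CPM. In the same line Neat1 was also lowest, at 53.5 CPM, and Rn7sk was highest among the BCR-ABL1 lines, at 22192 CPM. The check was made on 12 groups of 6 lines, of which chance marks about 1 in 20.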

How the results depend on the processing

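Under the 27 alternatives the log2 fold changes of the 6 RNAs kept their sign. Terc and Neat1 were called under each, with adjusted p between 1.87e-15 and 0.00459 for Terc and between 6.45e-10 and 0.0453 for Neat1. Rpph1 was called under each except in the lines of mouse 1 alone (-1.18). Against no change, 3389 genes were called higher and 3897 lower, and Rmrp (-1.36, adjusted p = 0.0197) and Malat1 (-0.83, adjusted p = 0.00188) were called. Mouse 1 alone gave 2512 and 1877 genes and -0.68 for Rn7sk, and mouse 2 alone 408 lower genes. Without EV 2A and EV 2B, 1438 genes were higher and Rn7sk was at -0.64. With total counts and without the 6 RNAs Malat1 was called at -0.95 (adjusted p = 0.0481), and the median over all genes was -0.14 in place of -0.02. Leaving out 1 line gave 807 to 1353 higher genes, the latter without EV 2C, and -0.92 to -0.72 for Malat1.

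A replicate block by mouse gave 1126 higher and 1080 lower genes, and Rnu11 was the 1 small nuclear RNA called; with the line number as replicate block the counts were 923 and 765. Neither block changed another call among the 6 RNAs, and Rmrp (-1.26 with mouse) stayed uncalled.

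The interaction of mouse and condition, near 0 for Neat1 at -0.01, was 0.17 under total counts, 0.088 without a gene filter, 0.10 with total counts and without the 6 RNAs and 1.19 without EV 2A and EV 2B, and -0.37 to 0.41 without 1 line. For Malat1 it was 0.28 without EV 2A and EV 2B and -0.47 to 0.05 without 1 line. It was called for Rpph1 by the likelihood ratio fit (-1.93), and without a gene filter for Rpph1 (-1.82) and Rmrp (-1.54). Without 1 line it was -2.07 to -1.11 for Rmrp and -2.29 to -1.34 for Rpph1. The cause of these changes was not tested. Other denominators moved no mean share by more than its SD. At 0 to 7 counts in EV lines, depth limits the size of the Terc difference.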

Other observations

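Other classes of small nuclear RNA were also highest in EV 2A and EV 2B. Small nucleolar RNAs took 0.131% and 0.105% of the counts in these lines, against 0.0571% to 0.0920% in the other EV lines and 0.0769% to 0.0927% in BCR-ABL1 lines. Small Cajal body RNAs, which guide the modification of spliceosomal RNAs, took 0.147% in EV 2A and 0.150% in EV 2B, against 0.0714% to 0.114% in the other EV lines and 0.0728% to 0.0864% in BCR-ABL1 lines. RNAs annotated as small nuclear RNAs had 0.0408% and 0.0338%, against 0.0160% to 0.0284% and 0.0154% to 0.0257%.

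The mitochondrial ribosomal RNAs took 1.83% to 3.24% in EV lines, with the highest shares again in EV 2B and EV 2A (2.63%), and 0.636% in BCR-ABL1 2A, the lowest of all lines. Long intergenic RNAs other than Malat1 and Neat1 had 1.09% to 1.69% in EV and 1.24% to 1.58% in BCR-ABL1 lines, and these ranges overlapped. Counts on protein-coding genes made up 83.2% in EV 2A and 84.3% in EV 2B, 89.5% to 91.1% in the other EV lines and 92.4% to 93.6% in BCR-ABL1 lines.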
